A study of Mus musculus with 6 samples.

Results

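The 9 mouse genes that encode the pore-forming α1 subunits of the voltage-gated calcium channels named by the rule used here, Cacna1a, Cacna1b, Cacna1c, Cacna1d, Cacna1e, Cacna1g, Cacna1h, Cacna1i and Cacna1s, were examined for DNA methylation in mouse primary mesangial cells, the contractile support cells of the kidney glomerulus. They are 9 of 22380 protein-coding genes on the assembled chromosomes of the mm9 genome, and the rule that lists them is by name and uses no measured value. Methylated DNA immunoprecipitation sequencing (MeDIP-seq) enriches fragments with an antibody against methylated cytosine, and each peak marks a stretch where such fragments piled up. The control group (3 samples) and the group exposed for 72 h to TGF-β1 at 10 ng/ml (3 samples) both grew in high glucose (25.5 mM) with fetal bovine serum, so no normal-glucose group was compared. A peak was given to a gene when its summit, the base with the most reads, lay in the gene or within 2 kb of either end. Overlapping peaks of the 6 samples were joined into regions. The 9 genes held 565 peaks in 186 regions, of 170444 regions in all. The study calls the samples of a group biological replicates, but the sources used here do not say whether they came from separate animals or cultures, so p-values measure the spread between these samples, part of which may be technical. Peak lists hold no expression, so the labelled cell type could not be checked against its markers.

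Each α1 subunit is 1 large protein of 4 homologous repeats that folds into the channel's pore, voltage sensors and gate, and the α1 gene sets the current type. Cacna1c, Cacna1d and Cacna1s give L-type currents, Cacna1a P/Q-type, Cacna1b N-type and Cacna1e R-type currents. Those channels open at strong depolarisation and bind an intracellular β subunit, whereas Cacna1g, Cacna1h and Cacna1i give low-voltage T-type currents. In vascular smooth muscle and other contractile cells the L-type channel of Cacna1c admits the calcium that drives contraction. Methylation in mammals falls mainly on cytosines followed by guanine (CpG), and CpG-rich promoters of active and poised genes are usually free of it.

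The 6 libraries held 9407103 to 13291419 reads and 81473 to 105520 peaks, and every TGF-β1 library was deeper than every control library. Depth and treatment therefore cannot be told apart in raw peak numbers or raw pileups. The median GC content of the peaks ranged from 47.7% in control replicate 1 to 48.8% in control replicate 3, and the share of all peaks with a summit in coding exons ranged from 6.59% in control replicate 1 to 9.40% in control replicate 3.

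The following stretches are those that the results turn on, written 5′ to 3′ along the gene's strand, with each CpG in capitals and mm9 coordinates. They are centred on the median summit of the region's peaks. The stretches from Cacna1d, Cacna1e and Cacna1s hold coding sequence in regions called in all 6 samples. Those from Cacna1i, Cacna1a intron 38 and Cacna1c intron 3 had the highest mean pileup of their genes. Cacna1c intron 1 had the lowest p of the member regions between groups, and Cacna1a intron 3 was called in the 3 TGF-β1 samples and no control sample.
Cacna1c intron 3, chr6:118957257-118957417 (-): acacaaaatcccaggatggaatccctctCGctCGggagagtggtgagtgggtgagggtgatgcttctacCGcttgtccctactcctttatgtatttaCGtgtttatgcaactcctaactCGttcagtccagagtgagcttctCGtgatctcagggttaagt
Cacna1c intron 1, chr6:119063240-119063400 (-): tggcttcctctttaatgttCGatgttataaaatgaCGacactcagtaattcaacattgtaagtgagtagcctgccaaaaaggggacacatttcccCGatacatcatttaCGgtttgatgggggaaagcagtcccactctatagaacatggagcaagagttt
Cacna1d exon 25, chr14:30915477-30915637 (-): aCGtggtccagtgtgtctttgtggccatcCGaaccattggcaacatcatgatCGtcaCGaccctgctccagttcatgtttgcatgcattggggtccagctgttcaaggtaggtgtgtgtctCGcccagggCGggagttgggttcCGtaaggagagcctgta
Cacna1s exon 32, chr1:138002882-138003042 (+): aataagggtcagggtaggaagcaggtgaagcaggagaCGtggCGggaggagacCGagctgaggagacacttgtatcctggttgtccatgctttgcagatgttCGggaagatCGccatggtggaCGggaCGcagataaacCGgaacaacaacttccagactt
Cacna1a intron 38, chr8:87149722-87149882 (+): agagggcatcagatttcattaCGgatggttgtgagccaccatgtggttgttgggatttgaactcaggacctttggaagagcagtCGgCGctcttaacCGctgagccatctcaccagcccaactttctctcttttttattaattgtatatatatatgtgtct
Cacna1a intron 3, chr8:87032215-87032375 (+): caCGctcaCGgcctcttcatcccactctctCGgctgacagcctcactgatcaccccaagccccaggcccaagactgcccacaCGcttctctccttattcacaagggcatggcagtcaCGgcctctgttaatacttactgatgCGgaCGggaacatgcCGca
Cacna1e exon 8, chr1:156340399-156340559 (-): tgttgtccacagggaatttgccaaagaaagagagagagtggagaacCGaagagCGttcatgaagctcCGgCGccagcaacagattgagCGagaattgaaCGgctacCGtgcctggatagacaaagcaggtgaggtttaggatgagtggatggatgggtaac
Cacna1i intron 36, chr15:80224935-80225095 (+): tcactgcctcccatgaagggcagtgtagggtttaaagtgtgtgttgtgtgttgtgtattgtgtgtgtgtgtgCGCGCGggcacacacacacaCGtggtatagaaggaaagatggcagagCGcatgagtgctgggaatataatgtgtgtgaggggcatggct
These stretches of 161 bases held 4 to 8 CpGs each. Over whole regions, the 31 regions of the α1 genes called in all 6 samples had a median of 2.27 CpGs per 100 bp, within 1.14 to 3.58, against 2.61 in all 41744 regions called in all 6 samples. A run of 8 CA units, on either strand, was present in 4 of the 31 regions (12.9%) and in 6.44% of the 41502 such regions on assembled chromosomes. This search was chosen after the sequences had been seen.

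Peak density differed more among the 9 genes than between the groups. Averaged over the 6 samples, Cacna1g had the most peaks per 100 kb of gene and flanks (10.0 ± 3.01, SD, n = 6), followed by Cacna1s (9.38 ± 1.15), Cacna1a (7.75 ± 1.41) and Cacna1i (7.39 ± 2.38). Cacna1h (4.72 ± 2.63), Cacna1c (4.44 ± 0.743) and Cacna1d (3.70 ± 0.754) were intermediate. Cacna1b (1.74 ± 1.12) and Cacna1e (0.741 ± 0.248) were lowest. The range over samples of each gene overlapped that of the next gene in this order. Within samples, Cacna1s exceeded Cacna1a, Cacna1c exceeded Cacna1d and Cacna1d exceeded Cacna1b in 6 of 6, while the other neighbouring pairs kept this order in 4 or 5 of 6. The lowest sample of Cacna1s (8.44) still lay above the highest of Cacna1c (5.10), and the lowest of Cacna1c (3.29) above the highest of Cacna1b (3.06). Among 4394 protein-coding genes with at least 60 kb of gene and flanks, the median was 5.04 and the middle 50% ran from 2.32 to 7.95. When peaks of at least 5-fold enrichment were used, Cacna1i fell from 7.39 to 4.49 and Cacna1s, at 7.74, was the highest. By all peaks, Cacna1g lay at percentile 86.8 of these genes, Cacna1s at 83.5, Cacna1b at 19.2 and Cacna1e at 9.6.

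**Figure D1:**
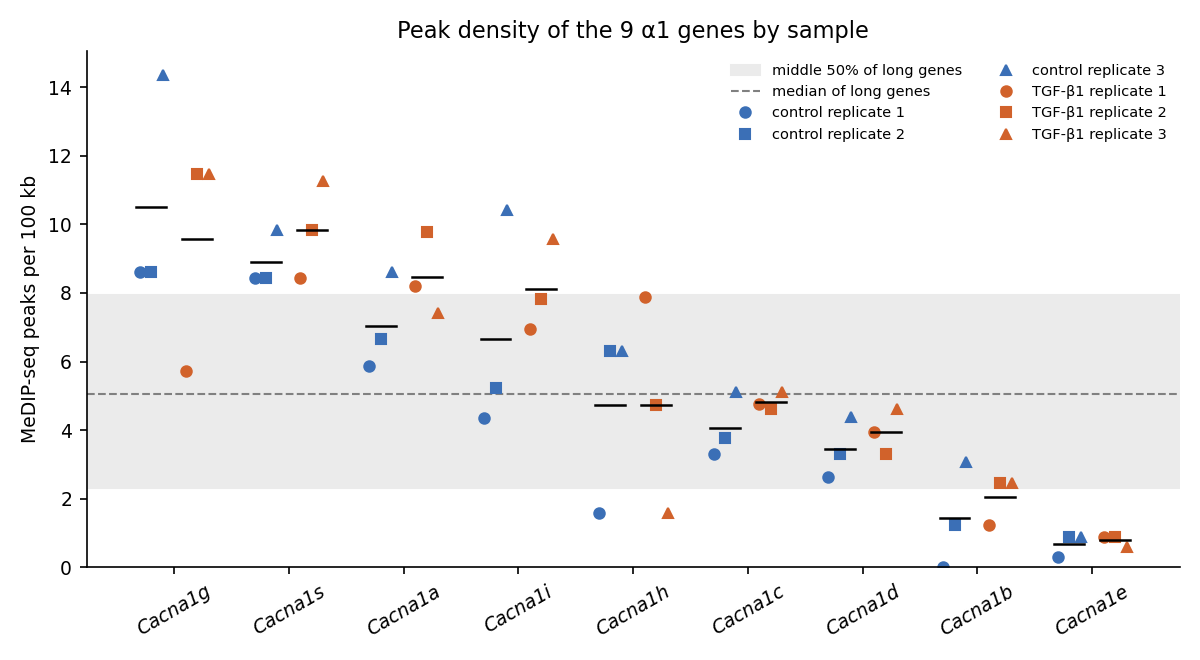
Peaks per 100 kb of gene and 2 kb flanks (y axis) for the 9 genes, ordered by their mean, with 1 point per sample (blue control, orange TGF-β1, shape for the replicate number), black bars for group means, a grey band for the middle 50% and a dashed line for the median of long genes. Cacna1g and Cacna1s sit highest with means of 10.0 and 9.38, Cacna1b and Cacna1e lowest with 1.74 and 0.741, and the control and TGF-β1 points overlap in every gene.

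The order of the genes resembled the order of their CpG content. Cacna1e had the fewest CpGs per kb (7.13) and Cacna1b (10.1), Cacna1d (10.9), Cacna1c (11.5), Cacna1s (12.3), Cacna1a (12.7), Cacna1i (15.4) and Cacna1g (16.5) followed, with Cacna1h highest (19.8, percentile 99.3 of the long genes). Spearman's rho between CpG density and peak density was 0.767 over the 9 genes and 0.770 over the 4394 long genes, as descriptions over genes that share libraries and base composition. Cacna1h departed from this order, since it had the most CpGs and an intermediate peak density, and without it rho was 0.905 over the other genes. Counted per 1000 CpGs, peaks numbered 7.65 in Cacna1s, 6.13 in Cacna1a and 6.09 in Cacna1g, 4.81 in Cacna1i, 3.86 in Cacna1c, 3.39 in Cacna1d, 2.39 in Cacna1h, 1.72 in Cacna1b and 1.04 in Cacna1e. Of the 9, Cacna1b and Cacna1e, the N- and R-type genes, were thus lowest per CpG as well as per kb. Cacna1a, the P/Q-type gene, was among the highest by both. Cacna1f, an α1 gene outside the 9, had 0.799 peaks per 1000 CpGs and 1.04 per 100 kb. Its peaks came from TGF-β1 replicate 3 only.

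**Figure D2:**
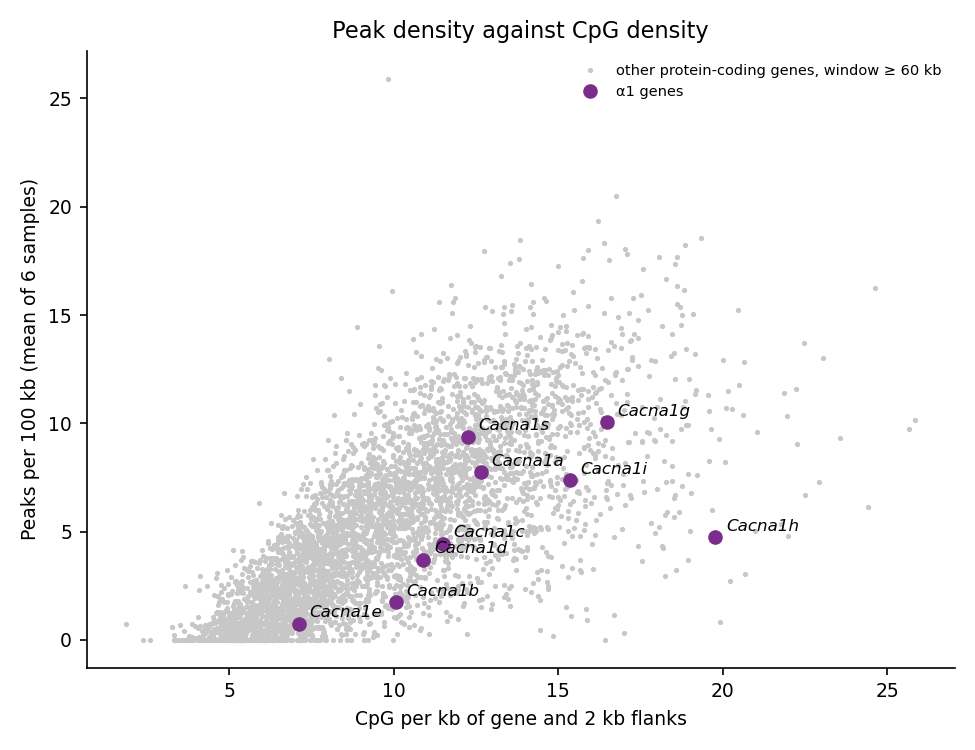
Mean peaks per 100 kb over 6 samples (y axis) against CpGs per kb of gene and flanks (x axis), with grey points for other protein-coding genes of at least 60 kb and purple points for the 9 α1 genes. Cacna1h lies far to the right at 19.8 CpGs per kb with 4.72 peaks per 100 kb, while the other α1 genes rise from Cacna1e (7.13 and 0.741) to Cacna1g (16.5 and 10.0).

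Most methylated regions of the α1 genes lay in introns. Of the 186 regions, 156 (83.9%) had their main summit in an intron, 22 (11.8%) in a coding exon, 4 in a non-coding part of an exon, 1 upstream, 1 downstream and 2 outside the coding transcripts. Of all 186, 31 (16.7%) were called in all 6 samples and 65 (34.9%) in only 1, whereas 24.5% of all regions in the genome were called in 6 and 27.3% in 1. Regions called in 1 sample had a median pileup (reads stacked over the summit) of 17 and a median length of 291 bp, against 24.3 and 474 bp for those called in 6. Of the 65 regions called in 1 sample, 4 were from control replicate 1, 4 from control replicate 2, 17 from control replicate 3, and 10, 14 and 16 from TGF-β1 replicates 1, 2 and 3. Of the 29 called in 5 samples, control replicate 1 was the sample without a peak in 13. Control replicate 2 was without a peak in 4 of these 29, control replicate 3 in 1, and TGF-β1 replicates 1, 2 and 3 in 6, 5 and 0. These counts did not follow read number throughout, since control replicate 2 had the fewest reads and control replicate 3 had fewer than any TGF-β1 sample. A total of 12 regions overlapped another annotated gene, among them Dcp1b at Cacna1c, Chdh and Dcp1a at Cacna1d and Tpsg1 at Cacna1h, and methylated DNA there cannot be assigned to 1 gene.

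Among the L-type genes, Cacna1c, the main L-type gene of contractile cells, is the longest of the 9 (chr6:118542314-119146249, 604 kb, minus strand) and had the most regions, 55, with 10 called in all 6 samples. Its strongest, in intron 3 (chr6:118957064-118957597), had pileups of 24, 23 and 43 in the controls and 28, 28 and 39 in the TGF-β1 samples. Cacna1d, an L-type gene that opens at less depolarised potentials (chr14:30853135-31304342, 451 kb, minus strand), had 31 regions, 5 of them in all 6 samples, and its strongest lay on coding exon 25 (chr14:30915286-30915866). The pileups there were 24, 26 and 36 in the controls and 34, 33 and 39 in the TGF-β1 samples, so the ranges overlapped. Cacna1s, the skeletal muscle L-type gene (chr1:137949327-138016399, 67.1 kb, plus strand), had 11 regions, 3 of them in all 6 samples. The strongest, in intron 2 (chr1:137962061-137962490), had 20, 25 and 33 reads in the controls and 35, 27 and 34 in the TGF-β1 samples, again with overlap.

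Among the other high-voltage genes, Cacna1a (chr8:86912339-87164145, 252 kb, plus strand) had 40 regions with 6 in all 6 samples. Its strongest, in intron 38 (chr8:87149566-87150004), had pileups of 34, 24 and 39 in the controls and 35, 46 and 39 in the TGF-β1 samples. Cacna1b (chr2:24459407-24618672, 159 kb, minus strand) had 8 regions and none in all 6 samples. Its most recurrent, in intron 15 (chr2:24546978-24547481), was not called in control replicate 1 and had pileups of 16 and 20 in the other controls and 11, 10 and 21 in the TGF-β1 samples. Cacna1e (chr1:156239649-156573049, 333 kb, minus strand) had 4 regions. The single Cacna1e region called in all 6 samples lay on coding exon 8 (chr1:156340311-156340713) with pileups of 22, 16 and 29 in the controls and 27, 20 and 26 in the TGF-β1 samples. From the upstream flank of Cacna1e into the gene, 186 kb (55.0% of gene and flanks) held no summit in any sample, the longest such stretch of the 9 genes. The longest was 66.9 kb (41.0%) in Cacna1b, 75.7 kb (16.6%) in Cacna1d and 9.2 kb (13.2%) in Cacna1g.

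Among the T-type genes, Cacna1g (chr11:94269705-94335414, 65.7 kb, minus strand) had 13 regions with 2 in all 6 samples. The strongest lay on the non-coding part of its last exon, exon 38 (chr11:94269700-94270388), with pileups of 14, 23 and 24 in the controls and 20, 24 and 29 in the TGF-β1 samples. Cacna1h (chr17:25511230-25570728, 59.5 kb, minus strand) had 7 regions, and the 1 called in all 6 samples lay 1.59 kb upstream of the gene (chr17:25572111-25572557). Its pileups were 23, 21 and 35 in the controls and 31, 34 and 32 in the TGF-β1 samples. Cacna1i (chr15:80117668-80228709, 111 kb, plus strand) had 17 regions, 3 of them in all 6 samples. The region in its intron 36 (chr15:80224775-80225248) had the highest mean pileup of all regions in the 9 genes, with 46, 33 and 52 reads in the controls and 43, 46 and 50 in the TGF-β1 samples. The middle of its printed stretch is a TG and CA repeat around a CGCGCG block.

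**Figure D3:**
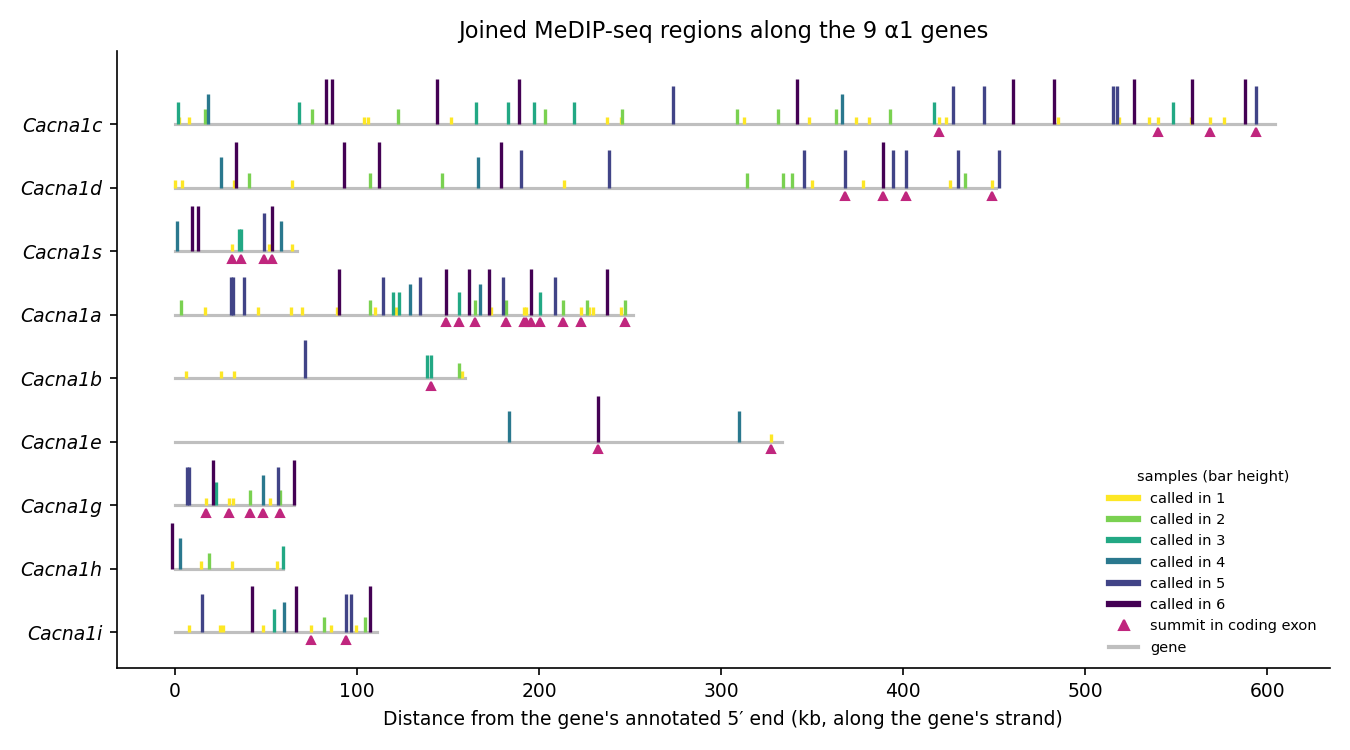
The 186 regions along the 9 genes, drawn to scale as distance in kb from the gene's annotated 5′ end (x axis), with bar height and colour for the number of samples (1 to 6) in which a region was called and pink triangles for regions with a summit in a coding exon. Cacna1e is empty over its first 184 kb, Cacna1b holds 8 regions, and Cacna1a has the most regions with a coding-exon summit (11 of its 40 regions).

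No peak of any sample had its summit within 1 kb of the start of the longest coding transcript of any of the 9 genes. Across the genome, 3089 of 22380 protein-coding genes (13.8%) had a peak within 1 kb of the annotated gene start in at least 1 sample and 705 (3.15%) in all 6. By the annotated gene start, 1 of the 9 α1 genes, Cacna1d, had such a peak, in 1 sample. The ratio of observed to expected CpG within 1 kb of those starts was 0.820 at Cacna1a, 0.816 at Cacna1b, 0.809 at Cacna1d, 0.756 at Cacna1i, 0.728 at Cacna1h and 0.625 at Cacna1g, all CpG-rich. The ratio was lower at Cacna1e (0.496), Cacna1c (0.289) and Cacna1s (0.235). These starts had 70, 30 and 34 CpGs within 1 kb, against 141 (Cacna1g) to 165 (Cacna1a and Cacna1h) at the others. Among the peaks given to each gene, the nearest summit lay 1.05 kb from the start in Cacna1s, 1.72 kb in Cacna1c and 1.98 kb in Cacna1h. It lay between 3.81 kb (Cacna1a) and 8.87 kb (Cacna1d) in the other genes except Cacna1e, and 184 kb away in Cacna1e. Peaks more than 2 kb beyond either end of a gene were not searched. When the starts of all annotated coding transcripts were used, Cacna1c had 5 peaks in 5 samples within 1 kb of one, Cacna1s 4 and Cacna1d 1. A CpG-rich and a CpG-poor start without a peak are shown here, from 250 bases before to 50 bases after the start, with CpGs in capitals.
Cacna1b start, chr2:24618518-24618817 (-): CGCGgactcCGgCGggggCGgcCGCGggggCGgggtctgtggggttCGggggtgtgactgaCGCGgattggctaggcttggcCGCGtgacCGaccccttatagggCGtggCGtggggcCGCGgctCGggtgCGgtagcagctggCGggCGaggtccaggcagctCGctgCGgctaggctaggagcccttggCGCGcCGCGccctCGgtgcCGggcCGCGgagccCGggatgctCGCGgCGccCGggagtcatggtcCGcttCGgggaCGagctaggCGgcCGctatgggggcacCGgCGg
Cacna1s start, chr1:137949111-137949410 (+): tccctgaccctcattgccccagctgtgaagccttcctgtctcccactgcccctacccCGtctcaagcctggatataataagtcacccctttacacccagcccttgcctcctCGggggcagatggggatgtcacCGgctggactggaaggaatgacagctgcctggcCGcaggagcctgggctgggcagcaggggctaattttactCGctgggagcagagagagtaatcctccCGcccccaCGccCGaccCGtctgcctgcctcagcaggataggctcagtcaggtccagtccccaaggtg
The window of Cacna1b held 44 CpGs in 300 bases and that of Cacna1s held 9. A window without a peak can be unmethylated or hold too few methylated CpGs to be pulled down, and peak lists do not tell these apart.

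Coding exons made up 2.87% of the 9 genes and their flanks and held 60 of the 565 peaks (10.6%). These came from 33 regions with a coding summit in at least 1 sample, which had a median of 3.17 CpGs per 100 bp and 56.5% GC, against 2.19 and 50.2% in the other 153 regions. The coding-exon peaks of the 9 genes numbered 2, 7 and 20 in control replicates 1, 2 and 3 and 8, 14 and 9 in TGF-β1 replicates 1, 2 and 3. Control replicate 3 had the most and control replicate 1 the fewest, and the control range enclosed the TGF-β1 range. As a share of the peaks of the 9 genes this was 3.03%, 8.54% and 17.5% in the controls and 8.33%, 13.7% and 8.57% in the TGF-β1 samples. The 2 samples with the highest share, control replicate 3 and TGF-β1 replicate 2, also had the highest share over all genes (9.40% and 9.23%), and control replicate 1 was lowest in both. Of the 33 coding regions, 14 (42.4%) were called in no sample but these 2, against 26 of the other 153 regions (17.0%), a count chosen after the values were seen. The part of library composition in this difference was not tested.

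**Figure D4:**
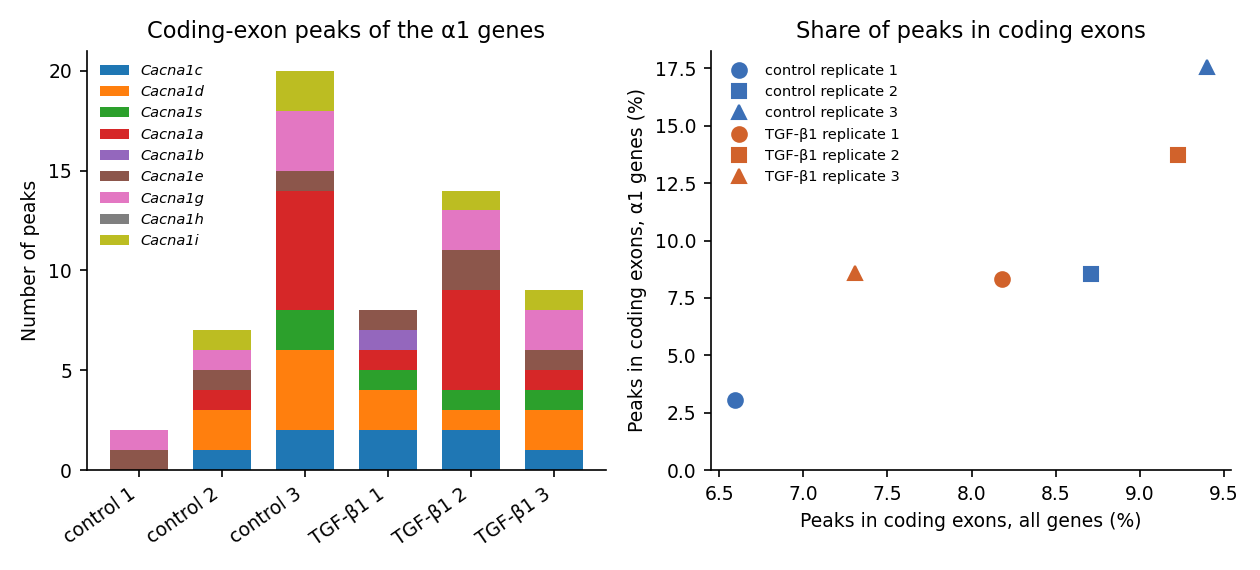
Left, the number of coding-exon peaks of the 9 genes in each sample (y axis), stacked by gene, which was 2, 7 and 20 in the controls and 8, 14 and 9 in the TGF-β1 samples. Right, the percentage of peaks in coding exons in the 9 genes (y axis) against that in all genes (x axis), 1 point per sample, with control replicate 3 (9.40% and 17.5%) and TGF-β1 replicate 2 (9.23% and 13.7%) highest on both axes.

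Cacna1a, whose channel triggers transmitter release at many synapses, held 11 of the 33 coding regions. Of its 14 coding peaks, 0, 1 and 6 were in the controls and 1, 5 and 1 in the TGF-β1 samples, so 11 of 14 came from control replicate 3 and TGF-β1 replicate 2. Cacna1g had 9 coding peaks (1, 1 and 3 in the controls, 0, 2 and 2 in the TGF-β1 samples), Cacna1d had 11 (0, 2 and 4 against 2, 1 and 2) and Cacna1h had 0 in every sample. Of the 33 coding regions, 5 were called in all 6 samples, though not all 5 had a coding summit in every sample. The 3 with the highest mean pileup were Cacna1d exon 25, Cacna1s exon 32 (chr1:138002713-138003110) and a region at Cacna1a exon 10 (chr8:87061075-87061477). The Cacna1s region, which spans the junction of intron 31 and exon 32, had pileups of 24, 24 and 19 in the controls and 26, 29 and 26 in the TGF-β1 samples. The TGF-β1 pileups there lay above the control pileups before scaling for depth, and the scaled log2 fold change was 0.06 (SE 0.22). The Cacna1a exon 10 region had 27, 21 and 26 in the controls and 26, 17 and 27 in the TGF-β1 samples, with overlap. The other 2 were Cacna1e exon 8 and a region at Cacna1a exon 28 (chr8:87107332-87107975). Only 2 of the regions called in all 6 samples had their main summit, the median over samples, in a coding exon. In the regions at Cacna1a exons 10 and 28 it lay in introns 9 and 28.

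Cacna1e exon 8 encodes the α interaction domain, the stretch between the first and second repeats of high-voltage α1 subunits that the β subunit binds. The same domain was found by its consensus in the translated longest transcripts of Cacna1a, Cacna1b, Cacna1c, Cacna1d, Cacna1e and Cacna1s, in exon 8 or 9, and in none of the T-type genes. The Cacna1e exon (chr1:156340432-156340547, 116 bp, 7 CpGs) was overlapped by a peak in all 6 samples. The corresponding exons of the other genes, with 3 CpGs in Cacna1a, 8 in Cacna1b, 5 in Cacna1c, 7 in Cacna1d and 6 in Cacna1s, were overlapped by 0 peaks. Cacna1e, the gene with the fewest peaks per kb, was therefore the gene with a recurrent peak on this exon, a feature singled out after the values were seen.

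To ask whether TGF-β1 changed the number of methylated stretches, the peaks of the 9 genes were counted per sample. They numbered 66, 82 and 114 in the controls and 96, 102 and 105 in the TGF-β1 samples, a difference in means of 13.7 peaks. The TGF-β1 counts all fell within the control range. Without control replicate 3 the difference was 27.0 peaks and without control replicate 1 it was 3.00. Per 1000000 reads they were 6.40, 8.72 and 9.92 in the controls and 7.53, 8.07 and 7.90 in the TGF-β1 samples, so the mean was lower after scaling (7.83 ± 0.277 against 8.34 ± 1.79, SD, n = 3 each). As a share of all peaks of the sample, the 9 genes took 0.0810%, 0.0908% and 0.113% in the controls and 0.0945%, 0.102% and 0.0995% in the TGF-β1 samples.

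No single α1 gene had a peak number in 1 group wholly above or below that of the other group, while across the 16694 protein-coding genes with a peak, 3.88% did so with TGF-β1 higher and 0.347% with TGF-β1 lower. Cacna1c had 20, 23 and 31 peaks in the controls and 29, 28 and 31 in the TGF-β1 samples. The counts of Cacna1a were 15, 17 and 22 in the controls and 21, 25 and 19 in the TGF-β1 samples. Both genes overlapped between groups, with exact two-sided permutation p-values of 0.4 for Cacna1c and 0.3 for Cacna1a, where 3 against 3 samples allow none below 0.1. The other L-type genes gave 12, 15 and 20 peaks against 18, 15 and 21 for Cacna1d and 6, 6 and 7 against 6, 7 and 8 for Cacna1s. The T-type genes gave 6, 6 and 10 against 4, 8 and 8 for Cacna1g, 1, 4 and 4 against 5, 3 and 1 for Cacna1h and 5, 6 and 12 against 8, 9 and 11 for Cacna1i. Cacna1b had 0, 2 and 5 in the controls and 2, 4 and 4 in the TGF-β1 samples, and Cacna1e 1, 3 and 3 and 3, 3 and 2. For these 7 genes the same exact permutation test gave p from 0.5 to 1. The means of Cacna1a, Cacna1c, Cacna1d, Cacna1e and Cacna1s were higher with TGF-β1 as counted and lower after scaling to equal depth.

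To ask whether the amount of methylated DNA in shared regions changed, pileups in the 31 regions called in all 6 samples were compared on the log2 scale after centring each sample on its median over all 41744 such regions. With an adjusted p (limma, Benjamini-Hochberg) under 0.01 and a log2 fold change beyond 2 in either direction required, 0 of the 31 regions passed, and 0% of all regions did. Only regions above the caller's threshold in every sample entered this fit, which limits how large a fall in either group it could show. At an unadjusted p below 0.05, 0 of the 31 passed, against 1.96% of all regions higher and 2.22% lower with TGF-β1. The lowest adjusted p among the 31 was 0.999 by limma. The log2 fold changes (TGF-β1 minus control) ran from -0.34 to 0.38 with a median of -0.03, against -0.0047 over all regions, with 14 above and 17 below 0. Scaled by reads of the sample instead, the median over all regions was -0.10 and that of the 31 regions -0.12, with 9 above and 22 below 0.

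The 3 regions with the lowest p among those higher with TGF-β1 were in Cacna1c and Cacna1d. The L-type genes Cacna1c, Cacna1d and Cacna1s held 10, 5 and 3 of the 31 regions. In Cacna1c intron 1 (chr6:119063169-119063534) pileups were 28, 18 and 17 in the controls and 31, 27 and 36 in the TGF-β1 samples. Before scaling for depth, only the highest control and the lowest TGF-β1 sample overlapped. The sample medians over all regions called in all 6 samples were 23, 23 and 27 in the controls. They were 28, 27 and 30 in the TGF-β1 samples, so the raw pileups overstate the separation of the groups. The scaled log2 fold change was 0.38 (SE 0.23, unadjusted p = 0.101 and adjusted p = 0.999 by limma). It was 0.67 without control replicate 1 (unadjusted p = 0.00694 by limma, the lowest adjusted p of the 44 regions then tested in the 9 genes being 0.762) and 0.16 without control replicate 3. The others were Cacna1c intron 8 (chr6:118685623-118686424, log2 fold change 0.17, SE 0.20) and Cacna1d intron 1 (chr14:31191802-31192198, 0.19, SE 0.22). The Cacna1d region lies upstream of the start of the longest coding transcript, so its intron number is that of another coding transcript. The 3 with the lowest p among those lower with TGF-β1 were in Cacna1a and Cacna1g. In Cacna1a intron 14 (chr8:87073575-87074046), another CA repeat, pileups were 23, 19 and 35 in the controls and 25, 24 and 20 in the TGF-β1 samples. The groups overlapped, control replicate 3 was the highest sample, and the log2 fold change was -0.34 (SE 0.22). The Cacna1a exon 10 region gave -0.32 (SE 0.22) and Cacna1g intron 9 (chr11:94313976-94314449) gave -0.30 (SE 0.21). None of these differences was larger than the spread between samples by the test on all 6 samples.

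**Figure D5:**
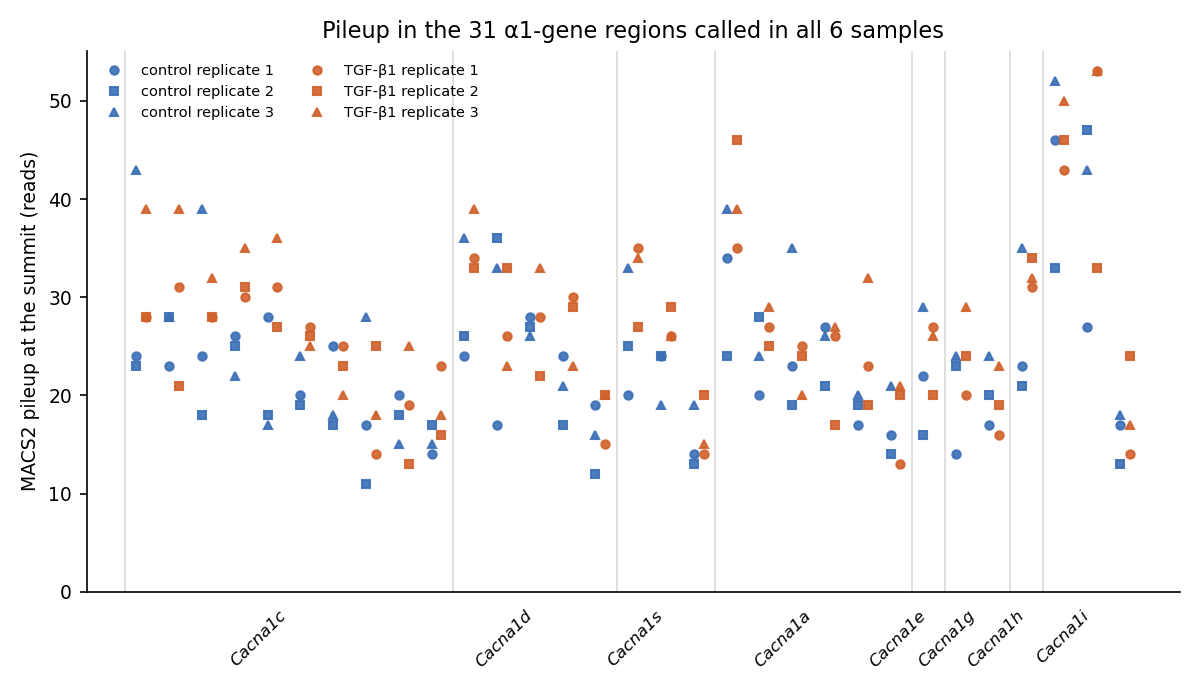
Pileup at the summit in reads, not scaled for depth (y axis), in the 31 regions called in all 6 samples, grouped by gene and sorted by mean within each gene, with 1 point per sample (blue control, orange TGF-β1, shape for the replicate number). Blue and orange points intermingle in most regions, and the intron 36 region of Cacna1i has the highest mean with 33 to 52 reads.

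By gene, the median pileup over the regions called in all 6 samples was higher with TGF-β1 in raw reads in each of the 8 genes that had such regions, and the median over all 41744 regions was likewise 23, 23 and 27 in the controls and 28, 27 and 30 in the TGF-β1 samples. In Cacna1i it was 34.3 reads in the controls and 42.0 in the TGF-β1 samples (means of 3), and per 1000000 reads 3.29 and 3.25. In Cacna1c it was 21.5 and 27.2 reads and per 1000000 reads 2.06 and 2.11. In Cacna1d it was 25.3 and 26.7 reads and per 1000000 reads 2.45 and 2.07. Per 1000000 reads the median was higher with TGF-β1 in Cacna1c and Cacna1h and lower in the other 6 genes.

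A region can also be called in 1 group and not in the other. Of the 186 regions, 27 (14.5%) were called in control samples only, 47 (25.3%) in TGF-β1 samples only and 112 (60.2%) in both, against 14.1%, 20.2% and 65.7% of all regions. A single region was called in all 3 TGF-β1 samples and no control, in intron 3 of Cacna1a (chr8:87032097-87032430), with pileups of 18, 20 and 21. Across the genome 0.948% of regions had this pattern, so 1 of 186 was near the background. No region had the opposite pattern, which 0.233% of all regions had. Absence from a peak list means only that the stretch was below the caller's threshold, and peaks were called down to a pileup of 8 reads in the controls and 9 or 10 reads in the TGF-β1 samples.

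The other 17 genes of the channel complex examined for comparison were the α1 gene Cacna1f, the α2δ genes Cacna2d1 to Cacna2d4, the β genes Cacnb1 to Cacnb4 and the γ genes Cacng1 to Cacng8. They held 184 regions, 40 of them called in all 6 samples. None of these 40 had an unadjusted p below 0.05 by limma, against 1.96% of all regions higher and 2.22% lower with TGF-β1. No gene's peak numbers separated the groups, against 3.88% of all genes with a peak higher and 0.347% lower. Their peaks numbered 83, 97 and 95 in the controls and 108, 104 and 111 in the TGF-β1 samples, where the groups did not overlap as counted, again with deeper TGF-β1 libraries. A total of 3 of the 184 regions were called in all 3 TGF-β1 samples and no control, and 0 the other way. Across the genome, 0.948% of regions had the first pattern and 0.233% the second. The peak density was highest in Cacng7 (11.6 per 100 kb), which, unlike any of the α1 genes, had a peak within 1 kb of its annotated start in all 6 samples, and lowest in Cacng3 (0.984 per 100 kb).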

How the data were processed

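The peaks of 3 control and 3 TGF-β1 MeDIP-seq samples were analysed, with groups and replicate numbers taken from the sample labels. The members and gene lists were chosen with earlier results of these data known. According to the file headers and the study's methods, the authors aligned reads to mm9 with BWA, kept uniquely mapped reads, counted reads with the same start once, and called peaks in each sample with MACS2 2.1.0.20150731 at a q-value below 0.01 without an input sample. Pileup was deposited as a raw signal: extended reads stacked over a summit, without scaling for depth. Fold enrichment was deposited as MACS2's ratio of this pileup to the local background, while p- and q-values were deposited as their -log10. Reads in uncalled stretches were not analysed here, so the authors' test on read counts could not be run again.

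Peaks were joined into regions at an overlap of at least 1 bp, which was checked against bedtools 2.31.1. Genes, exons and sequences came from GENCODE vM1 and the NCBIM37 assembly (the assembly of mm9) and were read with pysam 0.24.0. Exons and introns were numbered along the longest coding transcript. Where that transcript did not span a position, the next longest coding transcript that did was used. The region test used limma 3.58.1 (R 4.3.3), with empirical Bayes moderation and a mean-variance trend, on each sample's highest log2 pileup in a region, with no pseudocount, centred on the sample's median, over regions called in all 6 samples. It was run on simulated data with large shifts, equal noise in every region and no calling threshold. That run checks the code and does not show how small a change the test could find in these peaks. Single values were compared by exact two-sided permutation over the 20 assignments of 3 and 3 samples. Counts and densities used Python 3.11.15.

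The regions named were, per gene, the one with the highest mean pileup among those called in most samples, the 3 with the lowest p in each direction, those called in all samples of 1 group and none of the other, and the 3 coding-exon regions with the highest mean pileup. Alternatives were another scaling, fold enrichment in place of pileup, stricter peaks, other joining and assignment, leaving out each sample and a replicate block. Depth was 9407103 to 13291419 reads per sample, and peak numbers were compared both as counted and per read.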

Additional observations from a re-analysis of the deposited data

How the results depend on the processing

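The count of 0 regions past the limma thresholds was also found under every alternative run: scaling by reads, fold enrichment, regions called in at least 3 samples, joining up to 200 bp apart, stricter peaks, each sample left out, the replicate block, and an adjusted p below 0.05 with no fold minimum. These fits took only regions called in every sample used or in at least 3, so regions called in fewer were not tested. In the setting with at least 3, a sample without a peak was given the lowest pileup of all its peaks. That value was filled in and not measured. The count at an unadjusted p below 0.05 was 2 (of 92 regions) when regions called in at least 3 samples were used and otherwise ranged from 0 to 3 with a sample left out, the 3 (of 44) being without control replicate 1. The share over all regions tested was 4.05% with regions called in at least 3 samples and 6.15% without control replicate 1. The single region called in all TGF-β1 and no control samples was not among peaks of at least 5-fold enrichment (0 regions). The difference in peaks of the 9 genes (13.7) was -5.93 after scaling to equal depth, 1.67 among peaks of at least 5-fold enrichment, and 3.00 to 27.0 with a sample left out. Same-numbered samples did not deviate together (correlations -0.05, 0.04 and -0.13), so the numbers were not taken as pairs. With the replicate block the difference was 13.7 (exact sign-flip p = 0.5, the smallest possible being 0.25), and the limma counts stayed 0.

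Differences in single genes that changed sign were those of Cacna1a (-0.463), Cacna1c (-0.997), Cacna1d (-1.24), Cacna1e (-0.208) and Cacna1s (-0.783) after scaling to equal depth, and, among peaks of at least 5-fold enrichment, of Cacna1i (-1.67) and Cacna1s (-1). With a sample left out, the differences ranged from -0.167 to 2.33 in Cacna1b, -0.333 to 0.667 in Cacna1e and -1.33 to 0.667 in Cacna1g. The log2 fold changes of named regions did not reach an adjusted p below 0.05 by limma in any setting run, and 7 of them changed sign under some setting. Cacna1c intron 1 reached an unadjusted p of 0.00694 by limma without control replicate 1, and its log2 fold change ran from 0.16 to 0.67 with a sample left out. The other regions with the lowest p kept their sign and ran from 0.01 to 0.28 in Cacna1c intron 8, 0.08 to 0.36 in Cacna1d intron 1, -0.46 to -0.18 in Cacna1a intron 14 (-0.06 with fold enrichment), -0.45 to -0.14 at Cacna1a exon 10 and -0.41 to -0.20 in Cacna1g intron 9. The values that changed sign were, with fold enrichment, -0.0165 in Cacna1d exon 25, -0.0603 in Cacna1g exon 38 and -0.00741 in Cacna1s intron 2, and scaled by reads -0.0303 in Cacna1g exon 38 and -0.0330 in Cacna1s exon 32. With a sample left out, the values of regions that changed sign ran from -0.0302 to 0.214 in Cacna1a intron 38, -0.24 to 0.10 in Cacna1c intron 3, -0.214 to 0.0486 in Cacna1e exon 8, -0.13 to 0.24 in Cacna1g exon 38, -0.0175 to 0.194 in Cacna1s intron 2 and -0.15 to 0.19 in Cacna1s exon 32. The cause of these changes was not tested. The order of peak density kept Cacna1e lowest in every setting run. With peaks of at least 5-fold enrichment Cacna1s was above Cacna1g, and the densities were 7.74 in Cacna1s, 5.99 in Cacna1a and 4.49 in Cacna1i. With the flanks left out, Cacna1h fell from 4.72 to 3.36, below Cacna1c (4.47) and Cacna1d (3.55). Peak lists hold no values for uncalled stretches, MeDIP-seq signal depends on CpG density as well as methylation, and without an input sample local copy number and mappability were not removed.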
